A study of Mus musculus with 5 samples.

Results

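The genes described here are 8 genes of lipid handling in mouse cardiac fibroblasts (CF): *Lpl*, *Angptl4*, *Apoe*, *Apod*, *Cd36*, *Fabp4*, *Plin2* and *Pparg*. They were chosen by name from the 20365 gene names in the tables, and hold 15 of the 40428 distinct 3′ UTR intervals counted there. Where a gene had several intervals, the one with the highest mean deposited CPM (reads scaled to a library total of 1000000) in the labeled libraries was used. The CF came from healthy adult male wildtype C57Bl/6J mice, whose hearts were perfused with collagenase on a Langendorff apparatus, and were grown to confluency in plates with wells pooled by pairs. They were then kept for 12 h in medium with 0.1 mM of the uridine analog 4-thiouridine (S4U, labeled, n = 3) or in parallel without it (unlabeled, n = 2). No strain, injury or drug other than S4U differed between the groups, and all cells were grown outside the heart. In this assay (SLAMseq), S4U taken up into new RNA is alkylated, and sequencing then reports C at those T positions. The study used it to set transcript levels and RNA synthesis of CF beside the proteins the cells secrete.

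Cells take up fatty acids in several steps. Lipoprotein lipase, encoded by *Lpl*, splits the triglycerides of circulating lipoproteins at the vessel surface, and the secreted protein of *Angptl4* inhibits it. *Apoe* encodes a lipoprotein component that binds lipoprotein receptors, and *Apod* a small lipid carrier of the lipocalin family. The scavenger receptor of *Cd36* takes fatty acids across the plasma membrane, the binding protein of *Fabp4* carries them in the cytosol, and the coat protein of *Plin2* covers the lipid droplets where they are stored. *Pparg* encodes a nuclear receptor that binds fatty acids and drives adipocyte genes, and *Lpl*, *Cd36*, *Fabp4*, *Plin2* and *Angptl4* are known targets of PPAR receptors. In the heart, *Lpl* is best known from cardiomyocytes, and *Cd36* and *Fabp4* from capillary endothelium.

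The reads came from the 3′ ends of polyadenylated RNA, so each interval is a stretch of 3′ UTR and 1 transcript gives 1 read site whatever its length. Positions are on GRCm39 (mm39), counted from 1, with the canonical transcript of the annotation. *Lpl* was counted on chr8:69357159-69359584 (plus strand, exon 10), which is 99.9% of its 3′ UTR. *Cd36* was counted on chr5:17986688-17988347 (minus strand, exon 15), *Plin2* on chr4:86574802-86575269 (minus strand, exon 8) and *Apod* on chr16:31115010-31116158 (minus strand, exon 6). Those intervals also reach the end of the canonical transcript. The other intervals end inside the 3′ UTR, within 22 bases of the end of a shorter annotated transcript. They are chr17:33993874-33994360 for *Angptl4* (minus strand, exon 7, 1150 bases short of the canonical end), chr7:19430169-19430304 for *Apoe* (minus strand, exon 4, 135 bases short), chr3:10269402-10269579 for *Fabp4* (minus strand, exon 4, 617 bases short) and chr6:115467157-115467365 for *Pparg* (plus strand, exon 8, 903 bases short). Reads ending at the canonical site of those genes would fall outside the intervals. The intervals of *Lpl*, *Apod* and *Fabp4* lie over a gene annotated in antisense (*Gm64236*, *Gm41442* and *Gm66293*), so their reads are less certain. Only for *Apod* does the interval overlap an annotated antisense exon (513 bases), while for *Lpl* and *Fabp4* it lies in introns of the antisense gene.

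Cleavage often follows a polyadenylation signal, so the sequence near the end of each interval was searched for one. Stretches of 30 bases of the GRCm39 reference are given for several members 5′ to 3′ on the transcribed strand, with the signal (AATAAA or ATTAAA) in capitals.

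Lpl: ctgctttcAATAAAactgagaacattttat

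Angptl4: cattcttacAATAAAaacaacctcagaaca

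Apoe: ccttgcttAATAAAgattctccgagcacat

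Apod: ttcatttaATTAAAaaaaaaaaaaaaactc

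Cd36: gtgggaaacgatgtcATTAAAatcagattt

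Pparg: cttttaatATTAAAaattaccacattataa

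One of these hexamers lay in the last 50 bases of 7 of the 8 intervals, and of 78.0% of the 19783 intervals of at least 50 bases (1 per gene). The interval of *Plin2* had neither. In *Apod* the signal is followed by a run of A. The AU-rich motif TATTTAT, a longer form of the ATTTA pentamer known from unstable mRNAs, was searched in the last 300 bases on the transcribed strand. Among the members it was found only in *Lpl*, ending 244 bases before the interval's end, and 10.1% of the 15434 intervals of at least 300 bases held it. It is shown in capitals here.

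Lpl: agctttcaattTATTTATtagctgtaaata

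The labeled libraries held 1576048, 1194971 and 506045 reads on 1 interval per gene and the unlabeled ones 1843033 and 996143. Labeled replicate 3 was thus the shallowest. The markers fixed for CF were read throughout: all 8 of 8 fibroblast genes (*Col1a1*, *Col1a2*, *Col3a1*, *Dcn*, *Lum*, *Pdgfra*, *Tcf21* and *Postn*) had reads in every library, and together they came to 38742 to 42382 CPM relative to counted reads in the labeled libraries and 31372 to 34770 in the unlabeled ones. Adipocyte markers, of interest beside lipid genes, were sparse. Of 7, none was read in every library. *Lep* and *Retn* had 0 reads, and *Adipoq*, *Plin1*, *Cidec* and *Cfd* had at most 1 read in any library. *Adrb3*, an adrenergic receptor gene, had 12, 11 and 2 reads with S4U and 9 and 0 without. The adipocyte sum was 3.01 to 9.21 CPM. In bulk RNA, fewer cells of a type and less RNA per cell cannot be told apart. Nothing in the labels ties a library to an animal, so p-values measure the spread between these libraries.

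*Lpl* was the most abundant of the 8 genes by a wide margin, followed by mean level by *Apoe*, then *Fabp4* and *Plin2*, then *Angptl4* and *Cd36*, while *Apod* and *Pparg* stood at a few reads. Levels are given as CPM relative to counted reads, that is reads per 1000000 reads on 1 interval per gene. The intervals of *Angptl4*, *Apoe*, *Fabp4* and *Pparg* leave out reads at the canonical end, so this order holds for the counted intervals only. All 8 genes had reads in every library. *Lpl* alone took 74.3% of the summed level of the 8 genes in the labeled libraries.

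**Figure D1:**
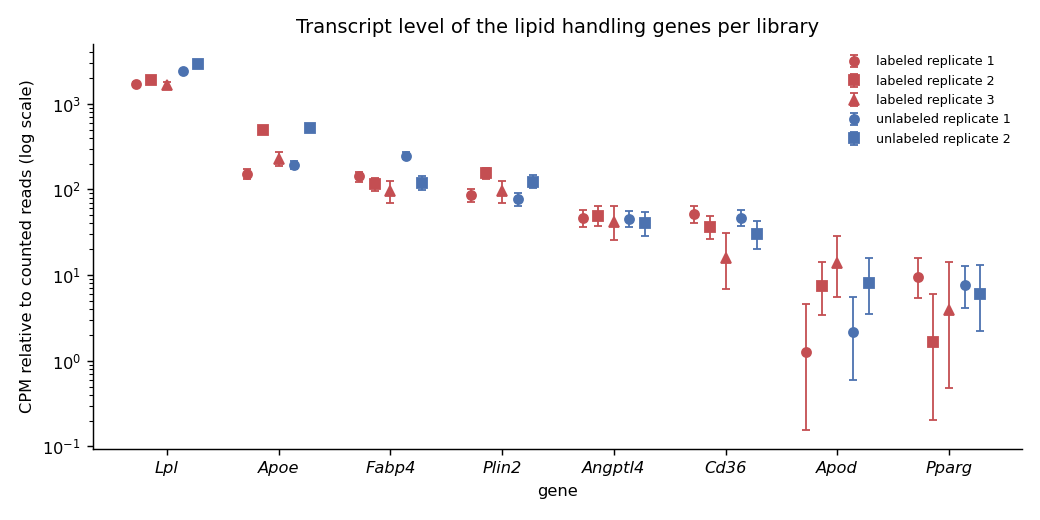
Transcript level of each gene in each library, as CPM relative to counted reads on a log scale. Red symbols are labeled and blue symbols unlabeled libraries, with exact 95% Poisson intervals that cover counting error only. *Lpl* lay between 1676 and 2931 CPM, while *Apod* and *Pparg* never exceeded 13.8 CPM.

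The level of *Lpl* was 1716, 1916 and 1676 CPM in labeled replicates 1 to 3 and 2381 and 2931 CPM in unlabeled replicates 1 and 2. The labeled mean was 1769 ± 129 CPM (SD, n = 3), which ranked 39th and exceeded 99.7% of the 11420 genes read in every labeled library. Each labeled library was below both unlabeled ones. *Lpl* was the only member with such a gap, which 13.1% of the 9807 genes tested for reads showed. Of the 8 fibroblast markers, *Col1a1*, *Col1a2*, *Col3a1* and *Dcn* were above *Lpl* in every library (the lowest of these, *Dcn*, at 4798 to 5038 CPM), and *Lum*, *Pdgfra*, *Tcf21* and *Postn* were below it in every library.

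*Angptl4*, the inhibitor of lipoprotein lipase, was far lower, and the ratio of its highest to its lowest library was the smallest among the members. It stood at 46.3, 49.4 and 41.5 CPM with S4U and at 45.6 and 40.2 CPM without it. The labeled mean was 45.7 ± 3.97 CPM (SD, n = 3), and the groups overlapped.

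*Apoe*, the main apolipoprotein of the set, varied most among the abundant members. Its level was 152, 493 and 225 CPM in the labeled libraries and 193 and 526 CPM in the unlabeled ones. The libraries numbered 2 of both groups were high and the other libraries low, so the groups overlapped. The labeled mean of 290.2 ± 179 CPM (SD, n = 3) therefore stands for a range of levels.

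The summed level of macrophage and immune markers had the order of libraries of *Apoe*, and of these markers only *Lyz2* had it singly. The summed level of 8 macrophage and other immune markers was 76.1, 137 and 94.9 CPM in the labeled libraries and 78.1 and 146 CPM in the unlabeled ones, which is the same order of the 5 libraries as for *Apoe*. Of those markers, 7 had reads in every library and *Ptprc*, the pan-leukocyte marker, had 0 in labeled replicate 3. *Lyz2*, a lysozyme gene of macrophages, had 4, 33 and 9 reads with S4U and 6 and 30 without, and its CPM had the order of *Apoe*. *Cd68* went the other way in the unlabeled libraries, with 20.1 and 11.04 CPM, and *Cd14* (11.9 and 11.04 CPM) and *Adgre1* (7.60 and 14.1 CPM, with 6.98, 5.86 and 1.98 CPM in the labeled ones) did not have the order of *Apoe* either. The summed endothelial markers were also highest in the libraries numbered 2, with levels of 143 to 256 CPM (labeled) and 181 to 257 CPM (unlabeled). *Pecam1* had the order of *Apoe*, with 5.71, 27.6 and 17.8 CPM (labeled) and 10.9 and 41.2 CPM (unlabeled). *Emcn* was higher in the libraries numbered 1 of both groups than in those numbered 2, and *Cdh5* in the unlabeled one. Of those 8 markers, 7 were read in every library, and *Vwf* had 0 reads in 4 of 5 libraries. Cardiomyocyte markers also had the order of *Apoe* in sum, though only 1 of 7 was read in every library. Their sum was 1.90, 8.37 and 5.93 CPM in the labeled libraries and 2.17 and 9.03 CPM in the unlabeled ones. The 1 marker read in every library, *Tnnt2*, had that order too, from 1 to 6 reads. The CF isolation described by the study includes a magnetic depletion of CD31+ and CD45+ cells, that is endothelial and immune cells. How many of all genes had the order of *Apoe* was not counted. Over 9807 genes, deviations from the group mean correlated between libraries of equal number (0.784 for those numbered 1 and 0.638 for those numbered 2). The part of endothelial cells, immune cells or cardiomyocytes in the level of *Apoe* was not tested.

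**Figure D2:**
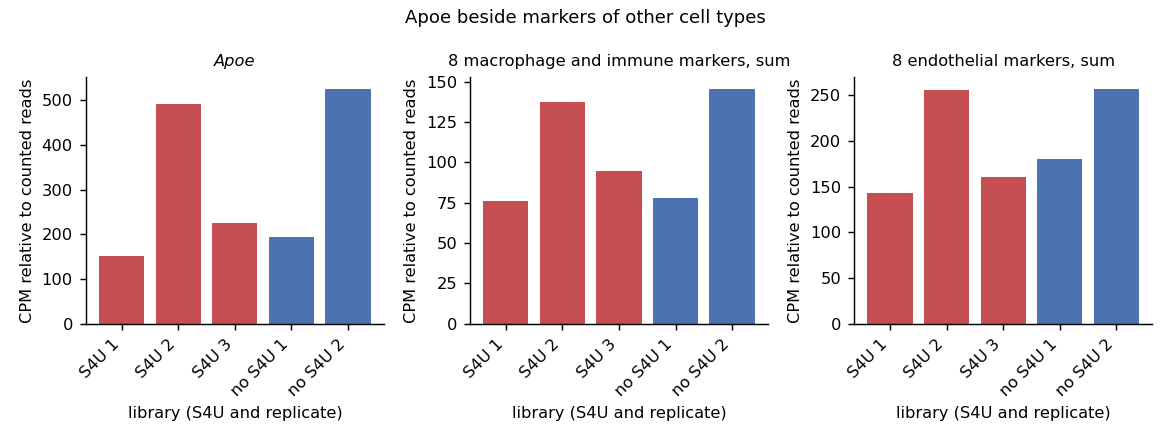
Level of *Apoe* and summed levels of 8 macrophage and other immune markers and of 8 endothelial markers in each library, as CPM relative to counted reads. Red bars are the 3 labeled and blue bars the 2 unlabeled libraries. *Apoe* ran from 152 to 526 CPM and the macrophage and immune sum from 76.1 to 146 CPM in the same order.

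The other apolipoprotein, *Apod*, was close to the limit of counting. It had 2, 9 and 7 reads in the labeled libraries and 4 and 8 in the unlabeled ones, or 1.27, 7.53 and 13.8 CPM against 2.17 and 8.03 CPM. Both the lowest and the highest value were in labeled libraries, so the groups overlapped. The exact Poisson interval of labeled replicate 3 (5.56 to 28.5 CPM) lay above that of labeled replicate 1 (0.154 to 4.58 CPM).

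*Fabp4* and *Plin2* stood at like levels around 100 CPM. *Fabp4* had 141, 115 and 94.9 CPM in the labeled libraries and 247 and 118 CPM in the unlabeled ones. *Plin2* had 85.0, 155 and 94.9 CPM with S4U and 76.5 and 123 CPM without. The labeled means of 117 ± 23.4 and 112 ± 37.8 CPM (SD, n = 3) lie within 1 SD of each other. The highest value of *Fabp4* was unlabeled replicate 1 and that of *Plin2* labeled replicate 2, and both genes overlapped between the groups.

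*Cd36* stood at 51.4, 35.98 and 15.8 CPM in the labeled libraries, the last from 8 reads, and at 46.7 and 30.1 CPM in the unlabeled ones. Its labeled mean of 34.4 ± 17.8 CPM (SD, n = 3) does not differ from that of *Angptl4* beyond the spread. *Pparg*, the transcription factor, had 15, 2 and 2 reads with S4U and 14 and 6 without. That is 9.52, 1.67 and 3.95 CPM against 7.60 and 6.02 CPM, higher than 10.5% of the genes read in every labeled library. Not all neighbours in the order of mean levels differed beyond their spread. The mean of *Apoe* lay within its own SD of those of *Fabp4* and *Plin2*, its labeled range (152 to 493 CPM) overlapped that of *Plin2* (85.0 to 155 CPM), and in unlabeled replicate 1 *Fabp4* (247 CPM) exceeded *Apoe* (193 CPM). *Apod* and *Pparg* did not differ beyond their spread either.

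The T>C conversion rate asks how much of a transcript was made during the 12 h with S4U. It is the number of T>C conversions divided by the number of T positions covered by reads, and RNA made before labeling carries no S4U. By mean rate in the labeled libraries, the members fell into a very low gene (*Apoe*), a low one (*Cd36*), a middle group (*Lpl*, *Angptl4* and *Fabp4*) and a higher one (*Plin2*). As reference, the median rate was 0.0388 (quartiles 0.0343 and 0.0423) over 2123 genes with at least 1000 covered Ts in every labeled library. *Lpl*, *Apoe* and *Fabp4* were among these. *Plin2* missed the minimum in labeled replicate 3 with 897 covered Ts.

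**Figure D3:**
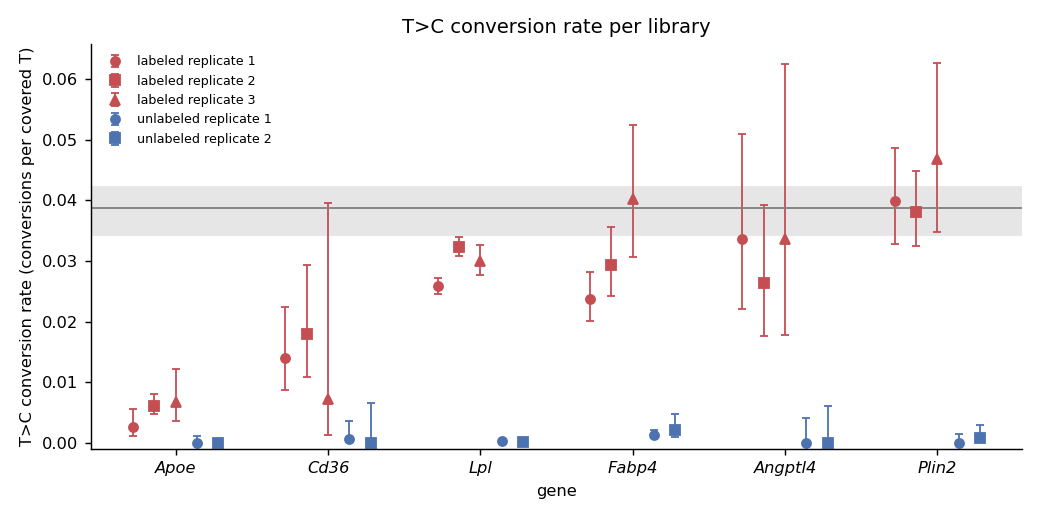
T>C conversion rate of 6 genes in each library, as conversions per covered T with Wilson 95% intervals for counting error. Red symbols are labeled and blue symbols unlabeled libraries, and the grey line and band are the median 0.0388 and the quartiles over 2123 well covered genes. *Apoe* lies at 0.00666 or below in every labeled library, and *Plin2* at 0.0381 or above.

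*Lpl* had rates of 0.0258, 0.0323 and 0.0301 in labeled replicates 1 to 3, from 52049, 49955 and 18935 covered Ts. The unlabeled libraries gave 0.000282 and 0.000192. With a mean of 0.0294 ± 0.00331 (SD, n = 3), *Lpl* was higher than 15.1% of the well covered genes (27.5% with a minimum of 5000 covered Ts). In each labeled library its rate was below the median of those genes (0.0378, 0.0390 and 0.0388). Reads with at least 1 conversion made up 35.6%, 43.6% and 43.2% of its labeled reads.

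*Angptl4* was close to its target in rate although its level was far lower. It gave 0.0337, 0.0263 and 0.0336 with S4U, from 623, 873 and 268 covered Ts. No conversion was counted in the unlabeled libraries, which allows rates of up to 0.00326 and 0.0048. The mean of 0.0312 ± 0.00421 (SD, n = 3) overlapped the range of *Lpl*. The labeled rates rest on 21, 23 and 9 conversions, with Wilson intervals of 0.0222 to 0.0510, 0.0176 to 0.0392 and 0.0178 to 0.0626. These include the median of 0.0388, so no single library sets *Angptl4* apart from that median or from *Plin2*.

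*Apoe* had the lowest rate of the 8 genes by mean. It was 0.00253, 0.00612 and 0.00666 in the labeled libraries, from 6, 53 and 10 conversions on 2375, 8658 and 1502 covered Ts. Without S4U there were 0 conversions, which allows rates of up to 0.000841 and 0.000396. The mean of 0.00510 ± 0.00225 (SD, n = 3) exceeded that of only 2 of the 2123 well covered genes. The labeled library with the highest *Apoe* level (replicate 2) did not have the lowest rate. Reads with a conversion made up 2.08%, 7.47% and 6.14% of the labeled reads of *Apoe*. Mean rates of the 8 macrophage and immune markers, most of them from few reads, ran from 0.00999 (*Lyz2*) to 0.0454 (*Cd14*), all above that of *Apoe*.

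The T>C rate of *Cd36* was 0.0140, 0.0179 and 0.00719 with S4U, the last from 1 conversion on 139 covered Ts. Without S4U it was 0.000649 and 0. Its mean of 0.0131 ± 0.00543 (SD, n = 3) was above every library of *Apoe* and below every library of *Lpl*, *Angptl4*, *Fabp4* and *Plin2*. The Wilson interval of labeled replicate 3 reaches from 0.00127 to 0.0396, so that library alone does not place the gene.

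*Fabp4* gave 0.0238, 0.0294 and 0.0402 with S4U, from 5672, 3401 and 1269 covered Ts. Its unlabeled rates of 0.00130 and 0.00218 were the highest background of the members. The mean of 0.0311 ± 0.00833 (SD, n = 3) has the largest SD of the well covered members, and the highest rate came from the shallowest library. *Plin2* gave 0.0399, 0.0381 and 0.0468 with S4U and 0 and 0.000798 without. At 0.0416 ± 0.00458 (SD, n = 3), the droplet coat gene was above 71.1% of the well covered genes. Its range did not overlap those of *Lpl* and *Angptl4*, while it overlapped that of *Fabp4*, although *Plin2* was the higher in 3 of 3 labeled libraries.

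The remaining members were too sparse for a rate. *Pparg* had 23, 1 and 1 conversions on 372, 45 and 42 covered Ts, or 0.0618, 0.0222 and 0.0238. *Apod* had 2, 0 and 1 conversions on 23, 123 and 106 covered Ts. The single rates of these genes therefore have Wilson intervals as wide as 0.0242 to 0.268 (*Apod*, labeled replicate 1).

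**Figure D4:**
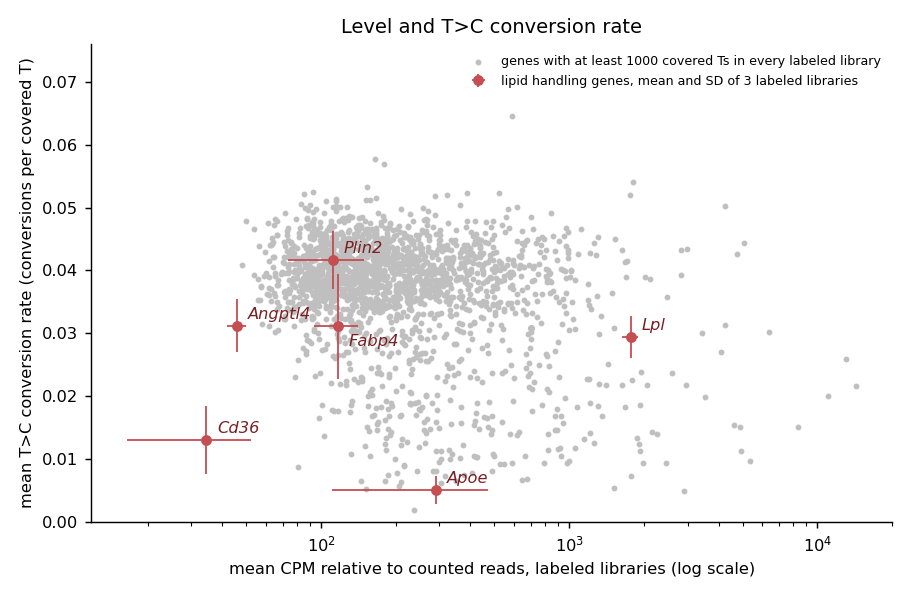
Mean T>C conversion rate (conversions per covered T) against mean level (CPM relative to counted reads, log scale) over the 3 labeled libraries. Grey points are the 2123 well covered genes, and red points with bars are 6 lipid handling genes with their SD. *Lpl* (1769 CPM, rate 0.0294) and *Apoe* (290.2 CPM, rate 0.00510) lie below the median rate of 0.0388, and *Plin2* (112 CPM, rate 0.0416) above it.

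Whether the rate exceeded the background of the unlabeled libraries was tested with a beta-binomial likelihood-ratio test (two-sided, unadjusted p under 0.05). It was raised in 7 of the 8 genes, and in 94.6% of the 19240 intervals tested, so the count of members is near the background share. *Lpl* had the smallest p (1.23e-06, beta-binomial model over all intervals) and *Pparg* the largest of the 7 (0.00183, from the same model). These p-values rest on the chi-square distribution of the model, since an exact permutation test of 3 against 2 libraries cannot go below 0.1. *Apod*, with 3 labeled conversions against 0 on 169 unlabeled Ts, did not pass, at a model p of 0.118 that is not an exact one. It passed without labeled replicate 2, which had no conversion (model p = 0.0441, not exact). *Apoe*, for all its low rate, passed (model p = 0.000335, not exact) and was above both unlabeled libraries in 3 of 3 labeled ones.

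Whether transcript levels differed with S4U was tested by comparing reads between labeled and unlabeled libraries with edgeR's quasi-likelihood test and Benjamini-Hochberg adjustment. None of the 6 members with enough reads passed an adjusted p of 0.05, and neither did any other of the 9807 genes tested (0% called). At an unadjusted p under 0.05, edgeR had 279 genes higher and 306 lower, with none of the members among them, and DESeq2 called 13 higher and 5 lower after adjustment. A replicate block over equal numbers changed the call, with 528 genes higher and 618 lower after adjustment, *Lpl* among the lower ones. No label says that equal numbers share a preparation.

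*Lpl* had the smallest p of the members, with a log2 fold change of -0.51 ± 0.24 (SE) in labeled against unlabeled libraries and a 95% interval of -1.09 to 0.06 (edgeR, adjusted p = 0.891). The value was -0.31 without unlabeled replicate 2 and -0.70 without unlabeled replicate 1. With a replicate block, which left 1 residual degree of freedom, it was -0.49 and passed (edgeR, adjusted p = 0.0139). *Fabp4* had -0.55 ± 0.34 (SE) and an interval of -1.36 to 0.26 (edgeR, adjusted p = 0.979). Its lower labeled mean rested on unlabeled replicate 1, and the log2 fold change was 0.017 without that library. The other values lay nearer to 0. They were 0.23 for *Plin2* (interval -0.67 to 1.14), 0.17 for *Angptl4* (-0.48 to 0.83), -0.04 for *Cd36* (-1.13 to 1.05) and -0.25 for *Apoe* (-1.67 to 1.17). The interval of *Apoe* was the widest and covers more than a doubling in either direction, so neither a rise nor a fall of that size was detectable. The sign for *Apoe*, *Cd36* and *Plin2* also turned when single libraries were left out (*Apoe* 0.72 without unlabeled replicate 2, *Cd36* 0.27 and *Plin2* -0.12 without unlabeled replicate 1). *Apod* and *Pparg* were not tested for reads because they failed the filter on low counts.

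**Figure D5:**
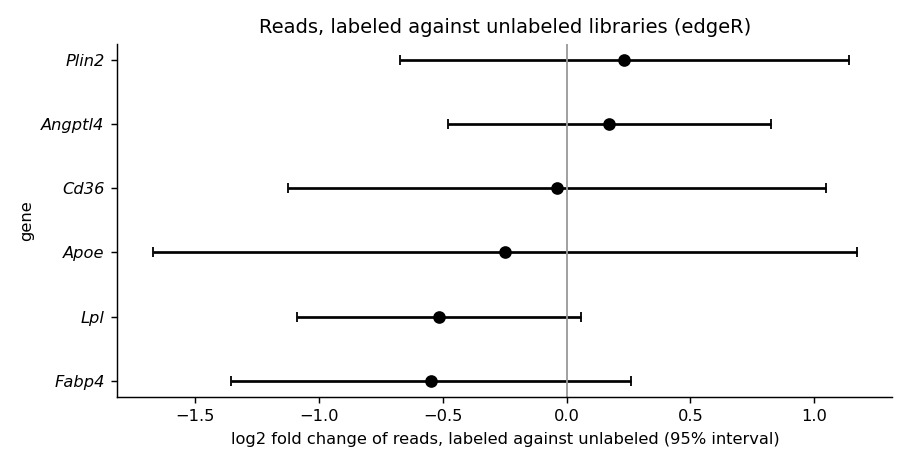
Log2 fold change of reads between labeled and unlabeled libraries for the 6 genes tested, with 95% intervals from edgeR. Points left of 0 are lower with S4U. Every interval includes 0, and that of *Lpl* reaches from -1.09 to 0.06.

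The genes that work with these members were taken from 6 lists with 81 genes in all, of which 67 were read in every library. In 64 of these 67 the T>C rate was raised by the beta-binomial test, the exceptions being *Apod*, *Apoc1* and *Fabp3*, each with at most 10 reads in any library. This is close to the share over all genes, where 10641 of 11179 passed with 1 interval per gene. Values below are means ± SD of the 3 labeled libraries. Reads changed in none of the 57 tested (edgeR, adjusted p under 0.05), where 24 had positive and 33 negative log2 fold changes, against a median of 0.02 over all genes tested. At an unadjusted p under 0.05, edgeR had 1 higher and 3 lower. Of 13 list genes with at least 1000 covered Ts in every labeled library, 10 had a rate below the median of all such genes.

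The partner genes *Gpihbp1* and *Lmf1* of lipoprotein lipase had low levels. *Gpihbp1*, which anchors the enzyme on endothelium and is itself an endothelial marker, stood at 7.52 ± 6.07 CPM (SD, n = 3). *Lmf1*, needed to fold the enzyme, stood at 21.2 ± 10.3 CPM. *Angptl8* and *Lipg*, known from adipose tissue and endothelium, had at most 3 reads in any library. *Lipa*, the acid lipase of lysosomes, was the other abundant lipase with 164 ± 15.7 CPM and a rate of 0.0345 ± 0.00255. The median log2 fold change of the 4 tested genes of this list was -0.50, and none passed the test.

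Among the lipoprotein receptors, *Lrp1* stood at 685 ± 190.2 CPM with a rate of 0.0233 ± 0.00404. *Vldlr* was lower at 60.4 ± 14.9 CPM. Only *Apoe* and *Pltp*, the phospholipid transfer protein gene, had a mean rate under 0.01 among the 51 list genes with at least 100 covered Ts in every labeled library. Over all genes with that coverage, 94 of 8402 did. *Pltp* had rates of 0.00298, 0.00506 and 0.00364 with S4U. Its level was 38.1, 82.0 and 45.5 CPM (labeled) and 45.6 and 88.3 CPM (unlabeled), highest in the libraries numbered 2. That also held for *Apoe* and for the summed macrophage and immune, endothelial and cardiomyocyte markers. *Abca1*, which exports cholesterol to apolipoproteins, gave a log2 fold change of -0.96 ± 0.46 (SE) that did not pass (edgeR, adjusted p = 0.895).

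Fatty acid genes beside *Cd36* and *Fabp4* were led by *Dbi*, the acyl-CoA binding protein gene, with 113, 549.8 and 617 CPM in the labeled libraries and 163 and 519 CPM in the unlabeled ones. The libraries numbered 1 were low in both groups. *Acsl4* and *Acsl5*, which activate fatty acids, had 106 ± 13.5 and 71.0 ± 9.70 CPM. *Fabp3* and *Fabp5*, the heart and epidermal relatives of *Fabp4*, reached 1.85 ± 0.158 and 12.3 ± 4.998 CPM, so *Fabp4* was the main binding protein gene of the 3. The 3 list genes lower at an unadjusted p under 0.05 were *Acsl3* (log2 fold change -0.97), *Acsl5* (-0.65) and the lipolysis inhibitor gene *G0s2* (-0.89), and the higher one was the transporter gene *Slc27a3* (1.24). Their adjusted p in edgeR lay between 0.626 (*G0s2*) and 0.811 (*Acsl3*).

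Of the droplet coat genes, *Plin2* and *Plin3* (94.7 ± 9.82 CPM, rate 0.0410 ± 0.00545) were read well. *Plin1*, *Plin4*, *Plin5*, *Cidea* and *Cidec*, which adipocytes and oxidative tissues use, had at most 6 reads in any library. The lipase genes *Pnpla2* and *Mgll* stood at 14.0 ± 1.88 and 43.3 ± 9.46 CPM, and *Abhd5*, the activator of the former, at 66.2 ± 9.38 CPM.

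*Pparg* was the lowest of the 3 PPAR genes together with *Ppara*, on an interval that ends 903 bases short of its canonical end. *Ppard* stood at 52.3 ± 12.9 CPM with a rate of 0.0358 ± 0.00847, *Ppara* at 7.67 ± 3.83 CPM and *Pparg* at 5.05 ± 4.04 CPM (SD, n = 3), so *Ppara* and *Pparg* do not differ beyond their spread. Without labeled replicate 1, the mean of *Pparg* was 2.81 CPM. *Rxra*, the partner in the PPAR heterodimer, had 119 ± 52.5 CPM. *Cebpb* and *Cebpd*, which act early in adipogenesis, were far higher at 505 ± 112 and 358 ± 35.8 CPM, and *Cebpa*, which acts later, had 54.6 ± 22.1 CPM. Of the fatty acid oxidation genes, *Cpt1a* had 175 ± 35.7 CPM and a rate of 0.0440 ± 0.00587, while *Cpt1b* and *Ucp3*, the muscle genes, had 0 reads in every library, against totals that allow up to 3 reads per library. *Pdk4*, a common PPAR target, gave a log2 fold change of 1.22 ± 0.53 (SE; edgeR, adjusted p = 0.856).

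The genes most like *Lpl*, *Apoe* and *Plin2* were sought over the levels of 5 libraries and the rates of 3 labeled ones. The measure was the Euclidean distance over these 8 values, each scaled to unit SD over the 2107 genes whose covered Ts reached 1000 in each of the 5 libraries. *Lpl* was nearest to *Myl12a* (1.31), *Serinc3* (1.35) and *S100a6* (1.45), where the median distance was 7.06. *Apoe* was nearest to *Tmem176a* (1.12), *Cpq* (1.13) and *Fbln1* (1.20), with mean rates of 0.00725, 0.00819 and 0.00621. Since rates enter the distance, these low values follow from how the genes were picked. The median distance from *Apoe* was 6.77. *Plin2* was nearest to *Hspa13* (0.54), *Fam32a* (0.65) and *Ppm1a* (0.65), where the median distance was 2.44.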

How the data were processed

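SLAMseq libraries of CF after 12 h with (n = 3) or without (n = 2) 0.1 mM S4U were grouped by the submitters' labels. The authors extracted UMIs with umi-tools, used SLAM-DUNK 0.4.3 to map QuantSeq 3′ end reads (mm39) and to count them on 3′ UTR intervals, and dropped UMI duplicates. The deposited read counts, covered Ts and conversions are whole numbers and were not normalized. Conversions over covered Ts were also deposited as a fraction. The deposited CPM divides counts by a library-wide number 7.58 to 28.9 times the reads counted, so levels were recomputed per 1000000 reads on 1 interval per gene. Repeated rows were used once, and of intervals with equal CPM the longest. Whether counting used the strand is not given in the sources used here.

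Rates were compared with a beta-binomial test with shared overdispersion on intervals where each library covered at least 1 T, and reads with edgeR (TMM, filterByExpr, Benjamini-Hochberg). Both were tested on simulated data. A count of 0 allows up to 3 counts, and Wilson and exact Poisson 95% intervals cover counting error only. Alternatives were DESeq2, other factors and filters, limma with 0.5 added, summed intervals, coverage minima, a replicate block and leaving out each library. The genes named were the 8 members, the lipid lists, markers a result rests on, and the 3 nearest genes of *Lpl*, *Apoe* and *Plin2* (0.5 added to reads). Members and lists were chosen with earlier results of these data known. Versions were DESeq2 1.42.0, limma 3.58.1 and edgeR 4.0.16 in R 4.3.3, and matplotlib 3.10.9, numba 0.67.0, pandas 2.3.3, scipy 1.17.1 and numpy 2.4.6 in Python 3.11.15. A few items of the lists are not reported here.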

Additional observations from a re-analysis of the deposited data

How the results depend on the processing

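Against 18200 intervals with a raised T>C rate, 3154 were raised when each library had to cover 1000 Ts, 3 members among them, and 10641 with 1 interval per gene, an alternative chosen after seeing the data. Both settings test fewer intervals. Leaving out 1 library gave 17056 to 18632 intervals and 7 to 8 members. Limma on the log odds called 18271 higher and 1 lower. For reads, DESeq2 called 13 genes higher and 5 lower where edgeR called 0 and 0. A replicate block, fitted with 1 residual degree of freedom, called 528 higher and 618 lower. It gave *Lpl* -0.49 (adjusted p = 0.0139), *Fabp4* -0.42 (adjusted p = 0.0762) and *Cd36* 0.24. No label says that equal numbers share a preparation. The deviations of libraries with equal numbers correlated at 0.784 and 0.638 over 9807 genes, while labeled replicate 3, with no partner, correlated at 0.482 with unlabeled replicate 2.

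Leaving out 1 library moved the log2 fold change of *Lpl* over -0.70 to -0.31, *Apoe* over -0.87 to 0.72, *Cd36* over -0.41 to 0.27, *Fabp4* over -0.95 to 0.017 and *Plin2* over -0.12 to 0.67, and no gene passed the test of reads in any of these fits. On the deposited CPM, the mean labeled level was 149 for *Lpl*, 23.2 for *Apoe*, 10.6 for *Fabp4*, 9.21 for *Plin2*, 3.91 for *Angptl4*, 3.46 for *Cd36*, 0.512 for *Pparg* and 0.428 for *Apod*, whose divisor exceeds the counted reads. The percent of labeled reads with a conversion, in place of the rate, was 57.8 for *Pparg*, 52.7 for *Plin2*, 47.9 for *Fabp4*, 40.8 for *Lpl*, 38.1 for *Apod*, 32.5 for *Angptl4*, 17.2 for *Cd36* and 5.23 for *Apoe*. A second interval of *Plin2* with 1 to 7 reads per library had a mean rate of 0.0119. With at least 5000 covered Ts in place of 1000 for the genes compared, *Lpl* was above 27.5% of genes by rate, *Angptl4* and *Fabp4* above 37.8%, *Apod* above 39.4%, *Cd36* above 7.19%, *Plin2* above 75.3% and *Pparg* above 50.3%, and with at least 100, *Cd36* was above 1.83% and *Pparg* above 35.8%. The rates of *Apod* and *Pparg* are too sparse to rank, since leaving out 1 library gave means of 0.00472 (without labeled replicate 1) to 0.0482 for *Apod*, against 0.0321, and of 0.0230 (without labeled replicate 1) to 0.0428 for *Pparg*, against 0.0360. Depth limits *Apod*, *Pparg* and labeled replicate 3 most.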

Other observations

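The reads of *Apoe* and *Angptl4* covered fewer Ts in the libraries numbered 1. For *Apoe*, each read covered 9.90, 14.7 and 13.2 Ts in the labeled libraries and 10.02 and 14.4 Ts in the unlabeled ones. For *Angptl4* the values were 8.53, 14.8 and 12.8 against 10.95 and 15.6. Over all genes with 1 interval each, they were 18.3, 20.6 and 20.9 against 19.4 and 21.5, so the same libraries were low with a smaller gap. Among the other members, Ts per read were also lowest in the libraries numbered 1 of each group for *Lpl*, *Cd36*, *Plin2* and *Apod*, but not for *Pparg*. For *Fabp4* they lay between 23.4 and 26.4 without that order. Of the lipid lists, *Dbi*, *Bscl2* and *Ucp2*, chosen after their values were seen, also had their lowest levels in the libraries numbered 1. *Bscl2*, which shapes lipid droplets, stood at 10.2, 56.9 and 55.3 CPM in the labeled and at 10.9 and 60.2 CPM in the unlabeled libraries. *Ucp2*, an uncoupling protein gene, stood at 1.27, 12.6 and 15.8 CPM against 1.63 and 9.03 CPM. Other list genes went the other way. *Rxra*, *Acadl*, *Cebpa* and *Klf15*, also chosen after their values were seen, were highest in the libraries numbered 1 of both groups.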
